A study of Mus musculus with 17 samples.

Results

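Toll-like receptors (TLRs) are pattern-recognition receptors of myeloid cells, and the genes described here are 8 of them (Tlr1, Tlr2, Tlr3, Tlr4, Tlr6, Tlr7, Tlr9 and Tlr13) with the co-receptor gene Cd14 and the adaptor gene Myd88. These 10 genes were taken by symbol from the 13501 genes of the deposited expression table, and all 10 passed the filter on low values, which kept 12074 genes. The libraries were bulk RNA-seq of living CD45+CD11b+ cells sorted from mouse brain, 17 in all. The study asked whether bone marrow-derived cells with Trem2, a lipid-sensing receptor of microglia, can take over from microglia that lack it in a mouse with amyloid plaques. 5xFAD is a set of human familial Alzheimer's disease transgenes driven by the neuronal Thy1 promoter. PLX5622 is a CSF1R inhibitor that removes microglia.

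The first of 5 groups was normal microglia from untreated wild-type mice without 5xFAD (n = 3). Trem2 wild-type 5xFAD microglia (n = 3) and Trem2 knockout 5xFAD microglia (n = 3) came from untreated mice. The last 2 groups were labelled circulation-derived myeloid cells and came from Trem2 knockout 5xFAD mice given a bone marrow transplant (BMT) plus PLX5622, from Trem2 wild-type donors (n = 4) or Trem2 knockout donors (n = 4). All transplanted cells thus sat in a Trem2 knockout 5xFAD host, and cell origin and treatment changed together, so that their effects cannot be told apart. The sort, as labelled, used no donor marker, so host cells with the same surface proteins could enter it. Age, sex and whether replicates were separate animals are not stated in the labels, so p-values measure the spread between these libraries, which may be technical.

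TLR1, TLR2, TLR4 and TLR6 sit at the cell surface and bind microbial lipids and lipoproteins, TLR2 as a pair with TLR1 or TLR6. TLR3, TLR7, TLR9 and TLR13 sit in endosomes and bind nucleic acids: double-stranded RNA, single-stranded RNA, unmethylated CpG DNA and bacterial ribosomal RNA, in that order. CD14 hands lipopolysaccharide to TLR4 and its partner MD-2, and MyD88 carries the signal of all of these receptors except TLR3, which uses TRIF, to IRAK kinases and NF-kB. In the brain these genes are expressed mainly by microglia and other macrophages, and TLR2, TLR4 and CD14 have been studied as receptors for fibrillar amyloid.

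The promoters of Tlr2 and Tlr3 are shown because these were the members with the largest rise and the largest fall between transplanted cells and microglia. Each is the RefSeq window (GRCm38.p6) from 250 bases before to 50 bases after an annotated start, read 5′ to 3′ on the gene's own strand, and capitals mark matches to the NF-kB consensus found on either strand.
Tlr2, chr3:83841559-83841858, minus strand: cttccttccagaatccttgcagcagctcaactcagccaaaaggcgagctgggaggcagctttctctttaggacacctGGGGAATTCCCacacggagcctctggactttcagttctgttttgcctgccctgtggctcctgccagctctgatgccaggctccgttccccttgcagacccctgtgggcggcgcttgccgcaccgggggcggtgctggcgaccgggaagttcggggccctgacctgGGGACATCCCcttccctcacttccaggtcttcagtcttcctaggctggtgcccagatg
Tlr3, chr8:45410331-45410630, minus strand: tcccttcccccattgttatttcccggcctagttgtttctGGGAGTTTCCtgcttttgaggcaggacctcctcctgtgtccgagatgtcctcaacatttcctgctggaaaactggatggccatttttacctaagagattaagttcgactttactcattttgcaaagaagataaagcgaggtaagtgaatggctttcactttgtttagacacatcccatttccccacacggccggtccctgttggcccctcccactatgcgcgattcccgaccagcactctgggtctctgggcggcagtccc
The Tlr2 window held 3 matches, of which 2 overlap and share the first capital stretch. Their first bases lay at -173, -172 and -8 from the start. The Tlr3 window held 1 match at -211. Of 32851 promoter windows of the same length, 8.46% held a match, and among the 9 windows found for 7 members only these 2 did. Other motifs were also searched and had no match in the 2 windows shown. Of the 9 windows, 3 held a PU.1 core (28.3% of all windows) and 2 an interferon element (3.44%). A TATA box lay in 2 (13.6%) and an AP-1 motif in 1 (7.81%). A match is a run of letters and was not tested as a binding site.

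Each library held 16044078 to 30606394 recovered reads (median 19254498). Trem2 followed the labels: its normalized read count was 3962 to 5965 in the 7 knockout libraries and 31205 to 53908 in the other 10. The microglial transcription factor gene Sall1 averaged 8603 in normal microglia and 6061 and 5451 in wild-type and knockout 5xFAD microglia, against 145.9 and 187.1 in wild-type and knockout donor cells. The sum of 10 microglia markers, Sall1 among them, fell less, at 408561 to 488450 in transplanted cells and 725276 to 924198 in microglia. The sum of 9 border macrophage markers was 33918 to 49123 in transplanted cells and 3774 to 9980 in microglia, with no marker at 0. Knockout microglia stood apart in neutrophil markers (11 of 12 in the table), whose sum was 54921 to 128999 against 15118 to 17994 in wild-type 5xFAD microglia, and in 10 monocyte markers (9749 to 21567 against 3213 to 3753). Within that group S26 lay far from S25 and S27, with a Sall1 count of 9288.72 against 3419.87 and 3644.46. Among wild-type donor cells S30 and S31 lay close together. Their sums of 6 oligodendrocyte markers were 23219 and 23476 normalized reads, against 7051 to 11086 in S28 and S29. The 9 T and NK cell markers summed to 628 to 1044 in normal, 213 to 269 in wild-type 5xFAD and 509 to 1661 in knockout 5xFAD microglia, 363 to 2932 in wild-type donor and 1759 to 4332 in knockout donor cells, with none at 0. Markers of other cells had sums of 206 to 1343 for B cells, 1254 to 2479 for plasmacytoid dendritic cells and 236 to 1630 for endothelial cells. Astrocyte markers summed to 517 to 1057 in transplanted cells and 4320 to 7752 in microglia. In bulk RNA fewer cells of a type and less RNA per cell cannot be told apart.

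Per kilobase of annotated exon, Cd14 had the highest level of the 10 genes in all 5 groups, from 7484 normalized reads per kb in knockout microglia to 17810 in wild-type donor cells. Tlr2 and Tlr13 followed in each group. In normal microglia their levels were 1604 ± 224 and 1497 ± 152 reads per kb (SD, n = 3). Myd88 and Tlr7 came next, at 1182 ± 59.6 and 1024 ± 143. Tlr4, Tlr1, Tlr3 and Tlr6 lay between 258.4 and 435.4. Tlr9 was lowest in all 5 groups, with 27.7 to 44.4 reads per kb. Tlr2 stood far above its neighbour Tlr13 in transplanted cells, where it reached 5682 ± 396 (wild-type donor, n = 4) and 5906 ± 540 (knockout donor, n = 4). Tlr3 went from the eighth to the ninth place, at 77.5 ± 13.9 and 130.5 ± 29.1 reads per kb.

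**Figure D1:**
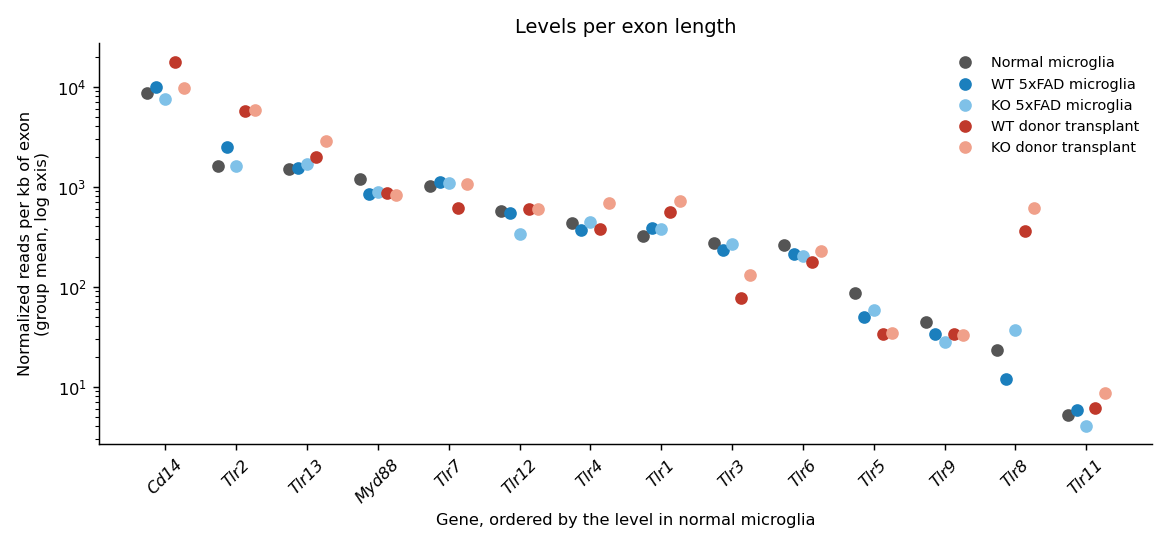
Group mean of normalized reads per kb of exon (log axis) for the 10 genes and 4 other TLR genes, ordered by the level in normal microglia, 1 colour per group. Cd14 is highest in every group, and Tlr8 shows the widest gap between transplanted cells and microglia.

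Differences were tested with limma on log2(normalized read count + 1) in 1 model of all 17 libraries, and calls were made where the p adjusted by Benjamini-Hochberg over all 12074 genes was under 0.05. They are given as log2 difference with its standard error (SE). The comparisons reuse the same 5 groups of libraries, so they are not independent of each other.

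The largest movement followed cell origin and treatment. Wild-type donor cells had higher Tlr2, Cd14 and Tlr1 and lower Tlr3 and Tlr7 than wild-type 5xFAD microglia, 3 higher and 2 lower of 10, where 13.6% of all genes were called higher and 14.6% lower (28.2% either way). Knockout donor cells had higher Tlr2, Tlr1, Tlr13 and Tlr4 and lower Tlr3 than knockout microglia, 4 higher and 1 lower, beside 11.7% and 13.7% of all genes (25.4%). Tlr2, Tlr1 and Tlr3 were therefore called in both. Against knockout microglia, wild-type donor cells had 3 higher (Tlr2, Cd14, Tlr1) and 2 lower (Tlr3, Tlr7), beside 17.3% and 17.8% (35.1%). The groups did not overlap for 6 of 10 members in each of these comparisons, where 41.1%, 27.8% and 31.2% of all genes did not overlap. The median log2 difference of the 10 genes was 0.00 for wild-type cells and 0.28 for knockout cells, against -0.03 and -0.02 over all genes. Of 9 border macrophage markers, 6 were called higher and 1 lower in wild-type donor cells than in wild-type microglia (median log2 difference 1.52). In the knockout comparison 4 were higher and 2 lower (median -0.11), so the sum does not stand for every marker. Of 10 microglia markers, 9 were called lower in the wild-type and 7 in the knockout comparison (median log2 difference -1.21 and -1.07). Sall1 and the border macrophage sums given above moved with these comparisons. So did T and NK cell markers, of which 7 of 9 were called higher in wild-type and 6 of 9 in knockout donor cells than in microglia of the same genotype, and neutrophil markers, of which 9 of 11 were higher in the former and 10 of 11 lower in the latter. The neutrophil sums were 21466 to 30346 in wild-type and 15892 to 36163 in knockout donor cells. Of 9 monocyte markers tested, 5 were higher in the wild-type and 9 lower in the knockout comparison. Of 6 astrocyte markers, 3 were lower in the wild-type and 6 lower in the knockout comparison. The part of all these markers in the members' differences was not tested.

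The Trem2 genotype of the donor separated the members in transplanted cells. Cd14 was higher in wild-type donor cells while Tlr4, Tlr7, Tlr3 and Tlr13 were lower, 1 higher and 4 lower of 10. Over all genes 3.75% were called higher and 2.99% lower (6.74%). The same 5 members were those without overlap between the groups, as were 13.7% of all genes. Their median log2 difference was -0.38, against 0.05 over all genes. These 5 calls were lost without S30 and S31, where 0 of 10 were called (20 of all genes, against 814 with all libraries). They were also lost when the closest pairs of libraries were averaged (0 of 10). All 5 log2 differences kept their sign. Both fits hold fewer libraries, which can lose calls by itself, so they cannot decide whether the calls depended on S30 and S31. Leaving out S31 alone left 3 calls. The sum of oligodendrocyte markers was highest in the same 2 libraries. All wild-type donor libraries (7051 to 23476) lay above all knockout donor libraries (4525 to 6226). Between the donors 5 of 6 oligodendrocyte and 2 of 6 endothelial markers were called higher in wild-type cells and 0 lower (median log2 difference 1.74 and 1.47). Against S28 and S29, S30 and S31 also had higher sums of endothelial markers (1221 and 1187 against 305 and 530). The sums of T and NK cell markers were higher too (2932 and 2752 against 363 and 968). The part of these markers was not tested.

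In microglia Tlr2 was the member that passed between Trem2 genotypes, with 1 of 10 higher in wild-type 5xFAD cells and 0 lower, beside 2.59% and 2.5% of all genes (5.09%). The groups did not overlap for Tlr2, Cd14 and Tlr4, 3 of 10 against 22.2% of all genes. Wild-type 5xFAD against normal microglia gave 1 of 10 higher, again Tlr2, and 0 lower (2.83% and 0.952% of all genes, 3.78% in all). In knockout microglia against normal microglia 0 of 10 were called by limma, beside 3.91% of all genes (2.7% higher and 1.21% lower). There, 2 members had an unadjusted p under 0.05, and edgeR called 0 and DESeq2 1. These counts without S26 were 2 for knockout against normal and 2 for wild-type against knockout microglia. The groups did not overlap for 5 of 10 members (wild type against normal, 33.6% of all genes) and 2 of 10 (knockout against normal, 20.2%). The Trem2 effect differed between transplanted cells and microglia for 1 of 10 members, Tlr2, in the negative direction (2.82% of all genes, 1.95% positive and 0.87% negative).

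**Figure D2:**
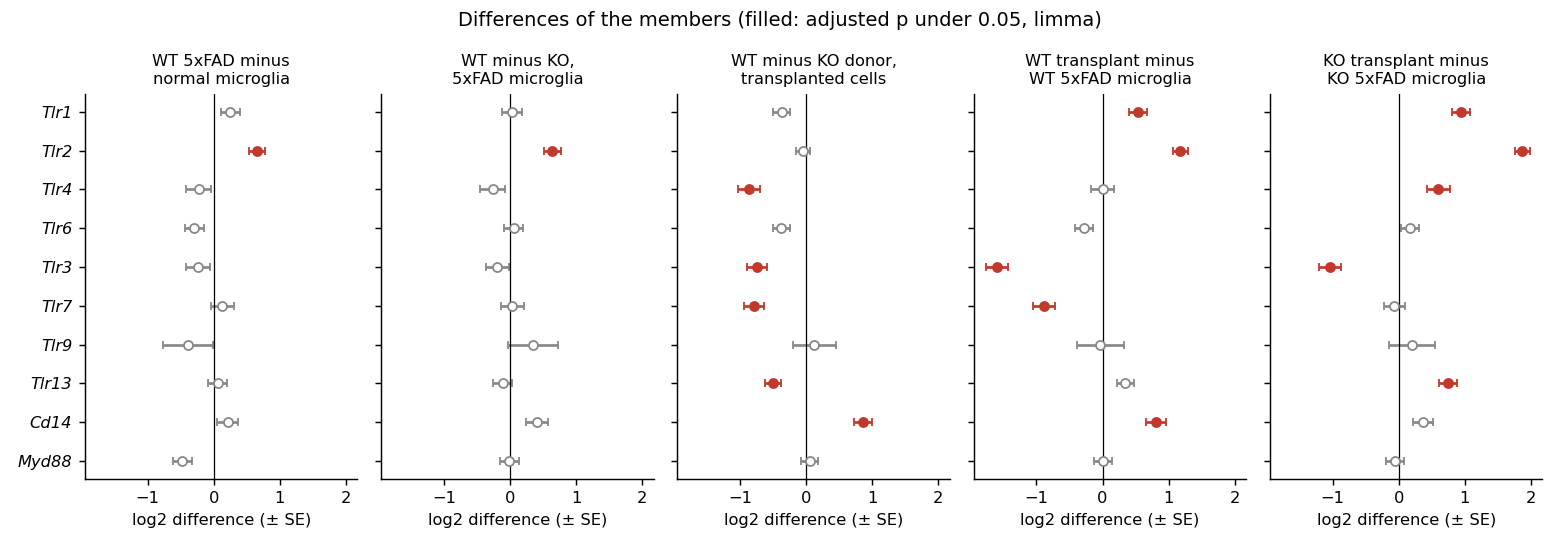
Log2 difference (± SE, limma) of each of the 10 genes in 5 comparisons, filled where the adjusted p was under 0.05. Tlr2 lies far to the right in both comparisons of transplanted cells with microglia and near 0 between the donors, where Cd14 lies right and Tlr4, Tlr7, Tlr3 and Tlr13 lie left.

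Of the surface receptors, Tlr2 (chromosome 3, 83836272 to 83841767, GRCm38, minus strand), which binds lipoproteins, moved most. Its normalized read counts were 5139, 5300 and 4060 in normal microglia (S20, S21 and S36), 7419, 7853 and 7439 in wild-type 5xFAD microglia (S22 to S24) and 5215, 4193 and 5238 in knockout 5xFAD microglia (S25 to S27). In transplanted cells they were 15675, 16672, 17806 and 18350 with wild-type donors (S28 to S31) and 17334, 18391, 19660 and 15820 with knockout donors (S32 to S35). Every wild-type 5xFAD library lay above every normal and knockout microglia library, and every transplanted library lay above all 9 microglia libraries. Normal and knockout microglia overlapped, as did both kinds of donor cell. Tlr2 rose in wild-type 5xFAD against normal microglia by 0.66 on the log2 scale (SE 0.12, adjusted p = 0.00392, 1.58-fold). Other measures also moved with that comparison: 4 of 9 border macrophage markers were called lower (sums of 3774 to 4106 against 7101 to 9980), as were 4 of 11 neutrophil markers (15118 to 17994 against 19519 to 32233). Of 9 T and NK cell markers, 2 were called lower (sums of 213 to 269 against 628 to 1044). Of 6 endothelial markers, 2 were called higher (1311 to 1630 against 655 to 1181, median log2 difference 2.01). The share of mitochondrial reads was 0.120 to 0.141% in wild-type 5xFAD and 0.0579 to 0.0826% in normal microglia. Their part in it was not tested. Knockout 5xFAD against normal microglia gave 0.02 (SE 0.12, adjusted p = 0.943). Wild-type against knockout 5xFAD microglia gave 0.64 (SE 0.12, adjusted p = 0.00454), which became 0.69 with adjusted p = 0.0607 when the closest pairs were averaged. The neutrophil and monocyte marker sums given above also moved with this comparison, and their part in it was not tested.

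Transplanted cells had 2.26-fold more Tlr2 than microglia when both were wild type (log2 difference 1.18, SE 0.12, adjusted p = 4.24e-07) and 3.65-fold more when both were knockout (1.87, SE 0.12, adjusted p = 1.61e-09). Between the donors the log2 difference was -0.05 (SE 0.11, adjusted p = 0.771). The Trem2 effect on Tlr2 was smaller in transplanted cells than in microglia by a log2 difference of -0.69 (SE 0.17, adjusted p = 0.0283). That call was lost without any of S22, S23, S24 or S33 (adjusted p 0.0608 to 0.0882), without S30 and S31 (0.0532) and with closest pairs averaged (0.161), at log2 differences of -0.67 to -0.77. In the same contrast 9 of 11 neutrophil, 7 of 9 monocyte and 4 of 9 border macrophage markers were called, all positive. The median log2 differences of these lists were 4.47, 2.87 and 1.63, and their part in the Tlr2 difference was not tested.

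**Figure D3:**
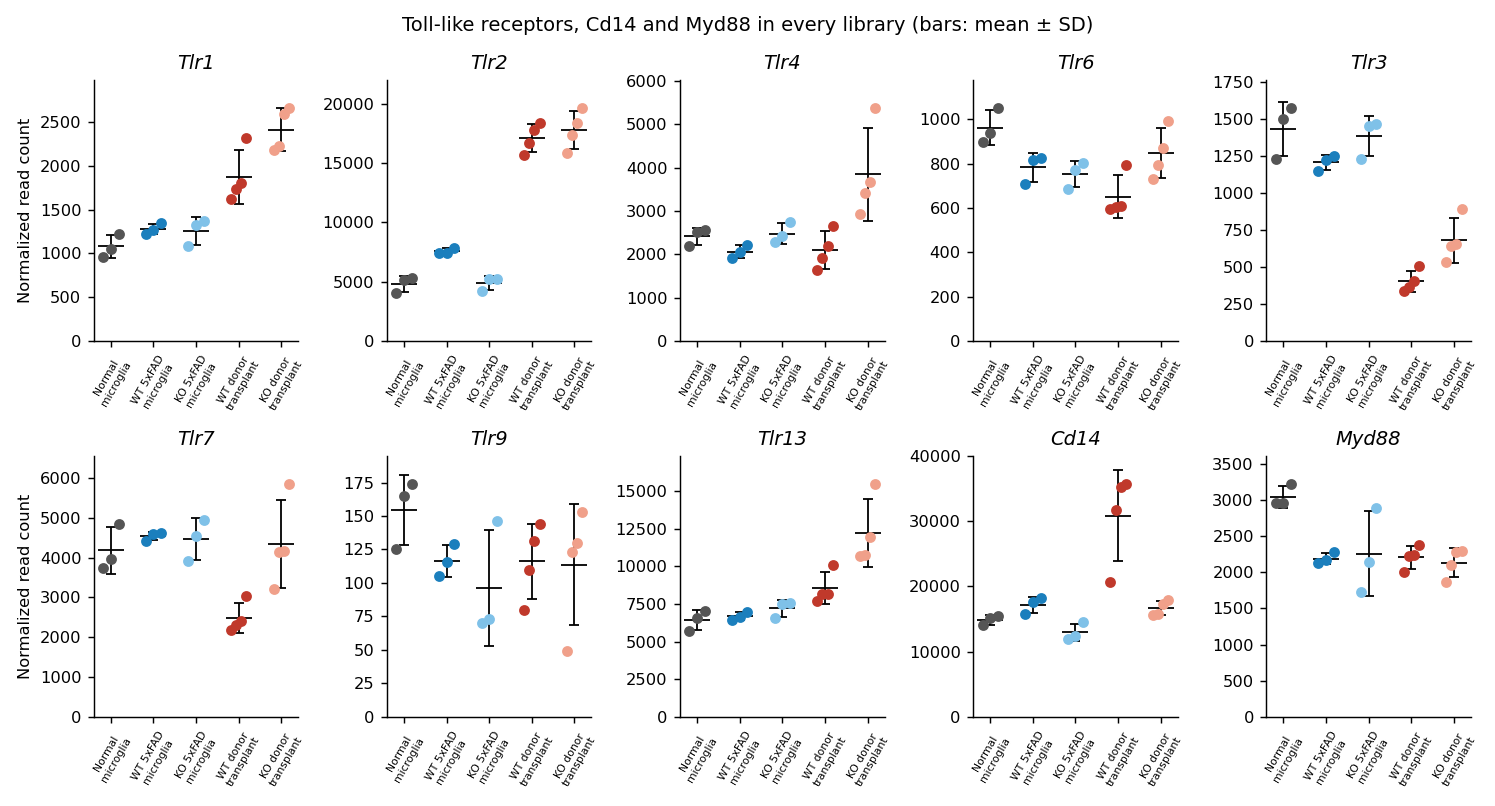
Normalized read count of each of the 10 genes in every library (points) with the mean and SD of each group (bars), linear axes from 0. Tlr2 is at 15675 or more in all 8 transplanted libraries and at 7853 or less in all 9 microglia libraries, and Tlr3 is lower in transplanted cells.

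Tlr1 (chromosome 5, 64924679 to 64933563), the partner of TLR2 for triacylated lipopeptides, was also higher in transplanted cells. It stood at 2325, 1802, 1740 and 1625 normalized reads in wild-type donor cells and 2223, 2591, 2664 and 2184 in knockout donor cells, against 962 to 1369 in the 9 microglia libraries. No transplanted library overlapped with microglia. The log2 difference was 0.54 in wild-type cells (SE 0.14, adjusted p = 0.00603) and 0.94 in knockout cells (SE 0.14, adjusted p = 4.08e-05). Between the donors it was -0.37 (SE 0.13, adjusted p = 0.0737), with S28 inside the knockout range.

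Tlr6 (chromosome 5, 64952031 to 64960097), the other partner of TLR2, was called in 0 of the 8 comparisons by limma, with 3 at an unadjusted p under 0.05, and in 1 by edgeR and 1 by DESeq2. Its group means ran from 652.0 ± 96.4 in wild-type donor cells (n = 4) to 963.1 ± 79.2 in normal microglia (n = 3). Its log2 difference between the donors was -0.38 (SE 0.13, adjusted p = 0.0725). It had an adjusted p of 0.0180 there without S28, whose count of 796.26 stood apart from 595 to 610 in the rest of its group. Tlr1 and Tlr6 lie side by side and are close copies: 13.6% of the windows of 50 bases in Tlr1 and 12.3% of those in Tlr6 are identical in the other, so some of their reads may have been split or dropped in counting.

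Tlr4 (chromosome 4, 66827584 to 66930284), the lipopolysaccharide receptor, was highest in knockout donor cells. Its normalized read counts there were 2927, 3418, 5382 and 3660 (S32 to S35), against 2653, 2182, 1634 and 1906 in wild-type donor cells (S28 to S31). The donors did not overlap, and S34 was highest by far. The 9 microglia libraries lay between 1922 and 2748. Tlr4 was 1.82-fold lower in wild-type than in knockout donor cells, a log2 difference of -0.86 (SE 0.16, adjusted p = 0.00894). This became -0.64 (adjusted p = 0.203) without S30 and S31, -0.79 (0.0873) with closest pairs averaged and -0.86 (0.0501) in a model of these groups alone. The donor difference stayed called without any single library (highest adjusted p = 0.0453). Knockout donor cells against knockout microglia gave 0.60 (SE 0.18, adjusted p = 0.0176), and the call was lost without S27 (0.58, adjusted p = 0.0581), without S25 and S27 (0.72, adjusted p = 0.0672) and in a model of these groups alone (0.60, adjusted p = 0.0696). Wild-type donor cells and wild-type microglia gave means of 2094 ± 435 and 2065 ± 145 normalized reads.

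Of the endosomal receptors, Tlr3 (chromosome 8, 45395665 to 45411080, minus strand), the double-stranded RNA receptor, fell most. Its normalized read counts were 504, 340, 405 and 365 in wild-type donor cells and 532, 653, 892 and 642 in knockout donor cells. The microglia counts were 1228, 1575 and 1501 (normal), 1226, 1150 and 1248 (wild-type 5xFAD) and 1466, 1231 and 1456 (knockout 5xFAD). All 8 transplanted libraries lay below all 9 microglia libraries, the 3 microglia groups overlapped, and the donors did not. Tlr3 was 3.02-fold lower in wild-type donor cells than in wild-type microglia (log2 difference -1.60, SE 0.17, adjusted p = 7.36e-07) and 2.06-fold lower in knockout donor cells than in knockout microglia (-1.05, SE 0.17, adjusted p = 0.000116). Wild-type against knockout donor cells gave -0.74 (SE 0.15, adjusted p = 0.0145). The donor call was lost without S31 (-0.70, adjusted p = 0.0609), without S30 and S31 (-0.69, adjusted p = 0.186), with closest pairs averaged (-0.72, adjusted p = 0.0951) and in a model of these groups alone (-0.74, adjusted p = 0.0688). An opposite-strand gene, Gm45542, overlaps 7.32% of the exon bases of Tlr3, and without strand marks its reads cannot be told from those of Tlr3.

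Tlr7 (X chromosome, 167304929 to 167330558), a single-stranded RNA receptor, was lowest in wild-type donor cells. Its normalized read counts were 3042, 2415, 2296 and 2172 there, against 3212, 4133, 5850 and 4171 in knockout donor cells and 3730 to 4942 in microglia. All 4 wild-type donor libraries lay below every other library, with S28 nearest to S32. The log2 difference was -0.88 against wild-type microglia (SE 0.16, adjusted p = 0.000494) and -0.79 against knockout donor cells (SE 0.15, adjusted p = 0.00931). Knockout donor cells against knockout microglia gave -0.07 (SE 0.16, adjusted p = 0.815). The donor difference became -0.65 without S30 and S31 (adjusted p = 0.203) and -0.74 with closest pairs averaged (adjusted p = 0.0903). It stayed called without any single library (highest adjusted p = 0.0480). The difference of the Trem2 effects was -0.82 and did not pass (SE 0.23, adjusted p = 0.0657). With each library left out it was called in 3 of 14 fits by limma (lowest adjusted p = 0.0235). Against knockout microglia the log2 difference was -0.85 (SE 0.16, adjusted p = 0.000692), and -0.67 (adjusted p = 0.0613) without S25 and S27.

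Tlr13 (X chromosome, 106143204 to 106160493), the bacterial ribosomal RNA receptor, was higher in knockout donor cells. Its normalized read counts were 10743, 11925, 15488 and 10678 with knockout donors and 10099, 8175, 8169 and 7719 with wild-type donors. Microglia lay between 5742 and 7599. No transplanted library overlapped with microglia, and the donors did not overlap. The log2 difference from microglia was 0.74 in knockout cells (SE 0.13, adjusted p = 0.000344) and 0.35 in wild-type cells, which did not pass (SE 0.13, adjusted p = 0.057). The donors differed by -0.51 (SE 0.12, adjusted p = 0.0248). That call was lost without S30 (-0.49, adjusted p = 0.0922), S31 (-0.46, 0.0972) or S34 (-0.39, 0.0721), without S30 and S31 (-0.41, 0.325), with closest pairs averaged (-0.47, 0.143) and in a model of these groups alone (-0.51, 0.0835).

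Tlr9 (chromosome 9, 106222598 to 106226883), the CpG DNA receptor, had low normalized read counts of 49 to 174, and its group means of 96.3 to 154.3 overlapped between neighbouring groups. It was called in 0 of the 8 comparisons by limma, edgeR and DESeq2, with 0 at an unadjusted p under 0.05 and SEs of 0.32 to 0.50. Among knockout microglia it was 146 in S26 and 73 and 70 in S25 and S27. With each library left out, knockout against normal microglia was called in 1 of 6 fits by limma (lowest adjusted p = 0.0337).

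Cd14 (chromosome 18, 36725067 to 36726798, minus strand), the lipopolysaccharide co-receptor, was highest in wild-type donor cells. Its normalized read counts were 20695, 31718, 35722 and 35235 there (S28 to S31) and 15694, 17295, 17852 and 15814 in knockout donor cells (S32 to S35). In microglia they were 15413, 15088 and 14053 (normal), 15823, 17614 and 18203 (wild-type 5xFAD) and 11934, 14494 and 12458 (knockout 5xFAD). Every wild-type donor library lay above every other library, with S28 well below the rest of its group. Cd14 was 1.81-fold higher in wild-type than in knockout donor cells (log2 difference 0.86, SE 0.14, adjusted p = 0.00476) and 1.75-fold higher than in wild-type microglia (0.81, SE 0.15, adjusted p = 0.000524). The donor difference was 0.62 without S30 and S31 (adjusted p = 0.113) and 0.78 with closest pairs averaged (adjusted p = 0.0564), and stayed called without any single library. Knockout donor cells against knockout microglia gave 0.37 (SE 0.15, adjusted p = 0.0883), and wild-type against knockout microglia gave 0.41 (SE 0.16, adjusted p = 0.153), although the libraries did not overlap in either comparison. The Trem2 effect on Cd14 did not pass as different between transplanted cells and microglia (0.45, SE 0.21, adjusted p = 0.281). With each library left out, that difference was called in 1 of 14 fits by limma (lowest adjusted p = 0.0217). Knockout donor cells against knockout microglia were called in 1 of 7 (0.0380), and wild-type against knockout microglia in 1 of 6 (0.0373).

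Myd88 (chromosome 9, 119335934 to 119341411, minus strand), the adaptor, had normalized read counts of 3222, 2953 and 2961 in normal microglia. They were 2165, 2276 and 2126 in wild-type 5xFAD microglia and 1730, 2887 and 2146 in knockout 5xFAD microglia. The normal libraries lay above all others, and S26 was the nearest to them. The log2 difference from normal was -0.48 in wild-type microglia (SE 0.15, adjusted p = 0.083) and -0.46 in knockout microglia (SE 0.15, adjusted p = 0.0709), and neither passed. DESeq2 called 2 of the 8 comparisons of Myd88 and edgeR 0. Without S26 the second became -0.66 (adjusted p = 0.000675). Transplanted cells had 1865 to 2372 reads, within the range of knockout microglia. The opposite-strand gene Acaa1a overlaps 11.3% of the exon bases of Myd88, and without strand marks their reads cannot be told apart.

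Within groups, some libraries held the highest or lowest count of several members. In the knockout donor group S34 had the highest count of 8 members and the lowest of Tlr9 and Myd88. In the wild-type donor group S28 had the highest count of Tlr1, Tlr3, Tlr4, Tlr6, Tlr7 and Tlr13 and the lowest of Tlr2, Cd14 and Myd88. Among knockout microglia S26 was lowest in 6 TLR genes and highest in Tlr6, Tlr9, Cd14 and Myd88. Over the 17 libraries, as a description, Tlr1 and Tlr13 had a Pearson r of 0.93 and Cd14 and Tlr3 one of -0.84, and such values carry the group differences.

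By the same measure over the 17 libraries on log2 values, the genes most like Tlr2 were C3ar1, a complement receptor (r = 0.99), Cpq and Rftn1. Tlr3 was most like P2ry12, a purine receptor used as a microglial marker (r = 0.99), Tmem263 and Man1a2. P2ry12 had 6576 to 10483 normalized reads in wild-type donor cells, 13307 to 19783 in knockout donor cells and 37026 to 67152 in microglia. After removal of the group means, r was 0.85 for Tlr3 with P2ry12 and 0.44 for Tlr2 with C3ar1. Cd14 was most like Gadd45g, a stress-response gene (0.93), Nr4a1, an immediate early gene (0.93), and Litaf (0.93). Nr4a1 had 599, 1554, 2332 and 2216 normalized reads in wild-type donor cells (S28 to S31) and 435 to 760 in knockout donor cells, moving with Cd14. Immediate early genes are also known to respond to tissue dissociation, and their part in the Cd14 difference was not tested. Tlr1 was most like Birc3 (0.97), Fgl2 and Txndc16, and Tlr13 like Galnt1 (0.96), Map4k3 and Rab8b. Tlr4 was most like Rab8b (0.92), Klhl9 and G3bp2, Tlr7 like Arhgap12 (0.95), Adam10 and Krit1, and Tlr6 like Zfp189 (0.92), Rnf180 and Inip. Tlr9 was most like Tmem101 (0.90), Ints5 and Tfe3, and Myd88 like Tsc22d4 (0.95), B4galt3 and Fiz1.

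The table held 4 other TLR genes. Tlr8 is an endosomal RNA receptor gene beside Tlr7 on the X chromosome. It had 52 to 118 normalized reads in normal microglia, 28 to 56 in wild-type 5xFAD microglia and 96 to 153 in knockout 5xFAD microglia. It had 1169 to 1557 in wild-type donor cells and 1812 to 2838 in knockout donor cells. It rose in transplanted cells by 4.95 on the log2 scale when wild type (SE 0.27, adjusted p = 1.7e-10) and by 4.05 when knockout (SE 0.27, adjusted p = 3.4e-09). Wild-type against knockout 5xFAD microglia gave -1.64 (SE 0.29, adjusted p = 0.00211), but adjusted p = 0.0672 in a model of these groups alone. The part of the neutrophil and monocyte marker difference was not tested. Between the donors Tlr8 did not pass by limma (-0.73, SE 0.25, adjusted p = 0.0818), while edgeR and DESeq2 called it (adjusted p = 0.0344 and 0.0132). Tlr12, a profilin receptor in mice, was lower in knockout 5xFAD microglia (1057 ± 375 reads, SD, n = 3, highest in S26 at 1490) than in wild-type 5xFAD microglia (1745 ± 111, n = 3), a log2 difference of 0.78 between wild type and knockout (SE 0.21, adjusted p = 0.043). This call was lost by edgeR (0.72, adjusted p = 0.0705), with upper-quartile scaling (0.72, 0.0542), in a model of these groups alone (0.78, 0.162) and with closest pairs averaged (0.63, 0.502). It was also lost without any one of S22, S23, S24, S25 or S27 (adjusted p 0.108 to 0.222) and was 0.23 (0.817) without S25 and S27. Tlr5 and Tlr11, receptors for flagellin and profilin, had 104 to 483 and 0 to 32 reads and were called in 0 of the 8 comparisons by limma, with Tlr5 in 2 and Tlr11 in 1 at an unadjusted p under 0.05. For wild-type donor cells against knockout microglia, edgeR and DESeq2 each called Tlr5 lower (-0.86, adjusted p = 0.0474, and -0.80, adjusted p = 0.0469).

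Partners of the members were counted from lists of pathway genes. Comparisons with knockout microglia also hold the neutrophil and monocyte marker difference given above, whose part in these counts was not tested. Of 15 co-receptor and trafficking genes other than Cd14, 4 were higher and 2 lower in wild-type donor cells than in wild-type microglia, and 5 higher and 2 lower in knockout donor cells than in knockout microglia. Over all genes 28.2% and 25.4% were called, and the median of the 15 was 0.04 and 0.03, beside -0.03 and -0.02 over all genes. Cd36, a scavenger receptor that works with TLR2, rose by 3.81 (SE 0.20) and 2.84 (SE 0.20) on the log2 scale. Unc93b1, the chaperone that takes TLRs to endosomes, rose by 0.63 (SE 0.16) and 0.72 (SE 0.16), of which the first was lost without S30 and S31 (0.50, adjusted p = 0.0834) and with closest pairs averaged (0.58, 0.0709) and the second without S25 and S27 (0.36, 0.25). Cd180, a TLR4-like receptor, fell by 0.86 (SE 0.20) and 1.44 (SE 0.20). Ly96, which encodes MD-2, rose by 1.33 (SE 0.29) in the wild-type comparison. Pld3, an endolysosomal nuclease that limits TLR9 ligands, was higher in wild-type than in knockout cells by 0.91 in microglia (SE 0.14) and 0.50 in donor cells (SE 0.12), and rose by 1.06 in wild-type 5xFAD against normal microglia (SE 0.14). The donor difference of Pld3 was lost without any one of S30, S31, S34 or S35 (0.41 to 0.48, adjusted p 0.0576 to 0.109), without S30 and S31 (0.33, 0.386), with closest pairs averaged (0.44, 0.154) and in a model of these groups alone (0.50, 0.0898). With all libraries the adjusted p-values of limma for these genes lay under the threshold. Between the donors 1 of 15 was higher and 1 lower (Tmed7, -0.45, SE 0.12, lost without any one of S30, S31, S33 or S34), and 0 in either direction without S30 and S31.

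**Figure D4:**
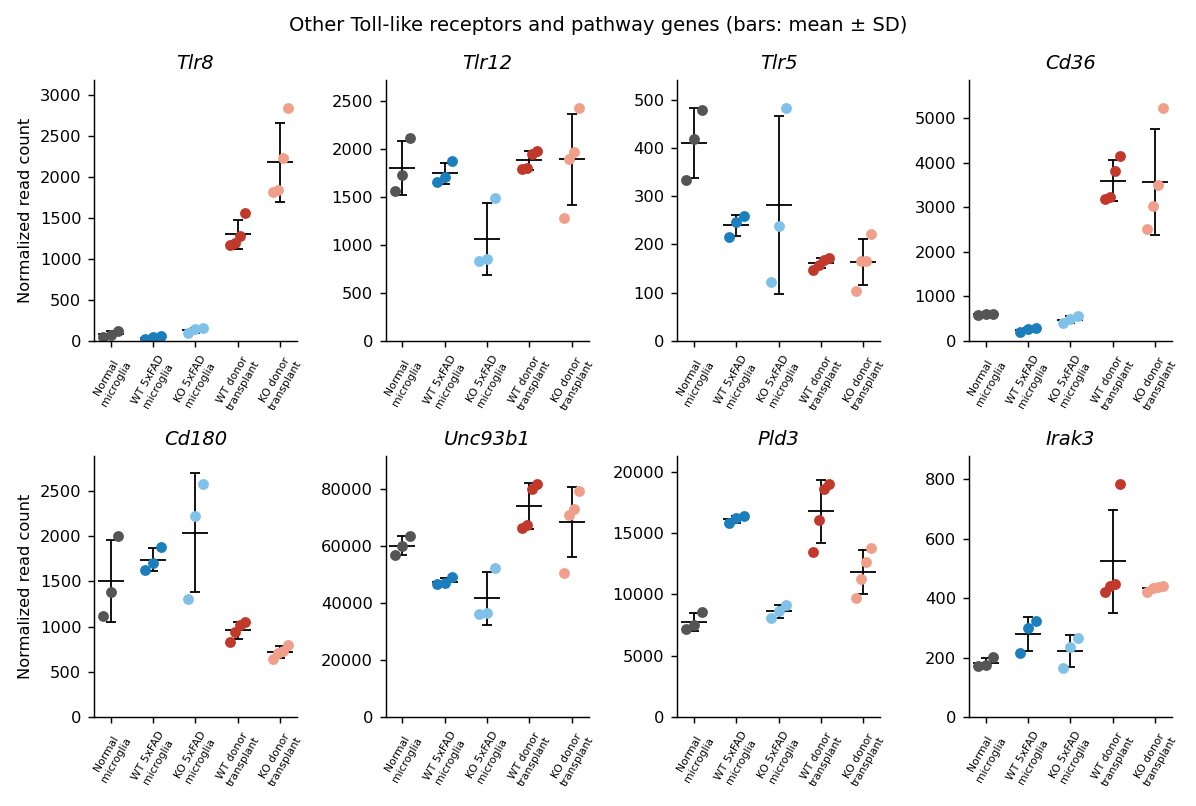
Normalized read count in every library (points) with group mean and SD (bars) for 3 other TLR genes and 5 pathway genes, linear axes from 0. Tlr8 and Cd36 are low in all 9 microglia libraries and high in all 8 transplanted libraries, while Cd180 is lower in transplanted cells.

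Of 27 adaptor, kinase and ligase genes other than Myd88, the called counts were 1 higher and 0 lower in wild-type 5xFAD against normal microglia (Map3k8, 0.79, SE 0.18), beside 3.78% of all genes, and 2 higher and 0 lower in wild-type against knockout microglia (Map3k8 and Irak2), beside 5.09%. Map3k8 was lost in the first without any one of S20, S21 or S24 and in the second without any one of S22, S23, S24 or S25. Irak2 was lost without any one of S22 to S25 or S27 and by edgeR (adjusted p = 0.0567). In donor cells against microglia the counts were 1 higher and 4 lower when wild type and 2 higher and 2 lower when knockout (28.2% and 25.4% of all genes), with the TAK1-binding gene Tab2 lower in both (-0.73 and -0.72, SE 0.15 each, the second -0.56 with adjusted p = 0.0822 without S25 and S27). Between the donors limma, edgeR and DESeq2 each called 0 of 27, and 1 higher and 6 lower had an unadjusted p under 0.05. Of 16 negative regulators, 4 were higher and 1 lower in wild-type 5xFAD against normal microglia and again in wild-type against knockout microglia, beside 3.78% and 5.09% of all genes. The median of the 16 was 0.21 and 0.34, beside 0.00 and 0.01 over all genes. Tnfaip3, the deubiquitinase A20, led both with 1.32 (SE 0.21) and 1.53 (SE 0.21), and Dok3 was the lower gene. In the donor comparison 4 of 16 were higher and 0 lower (6.74% of all genes), among them Zfp36, which destabilises cytokine mRNA (0.97, SE 0.19), but 0 without S30 and S31. Against microglia, Irak3, an inhibitory IRAK, rose in donor cells by 0.88 when wild type (SE 0.22, adjusted p = 0.0056) and by 0.99 when knockout (SE 0.22, adjusted p = 0.0025).

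Of 22 NF-kB target genes, 6 were higher and 1 lower in wild-type 5xFAD against normal microglia, beside 3.78% of all genes, led by the chemokine gene Ccl3 (3.44, SE 0.41) and by Nfkbiz (2.28, SE 0.28). In wild-type against knockout microglia 6 were higher and 0 lower (5.09% of all genes), with Nfkbiz at 1.54 (SE 0.28) and Tnf at 1.98 (SE 0.44, but adjusted p = 0.0647 without S24). The median of the 22 was 0.65 and 0.34 in these comparisons, beside 0.00 and 0.01 over all genes. Between the donors 9 of 22 were higher in wild-type cells and 0 lower (6.74% of all genes), with Il1b at 1.85 (SE 0.30) and Ccl4 at 1.94 (SE 0.35) and a median of 0.66 (0.05 over all genes). Il1b had 2489, 4907, 6623 and 6763 normalized reads in wild-type donor cells (S28 to S31) and 928 to 1855 in knockout donor cells, without overlap. Without S30 and S31 0 of 22 were called, and without S34 5 were. Of 13 TRIF and interferon target genes, 4 were higher and 0 lower in wild-type and 4 higher and 0 lower in knockout 5xFAD microglia against normal, which share the normal libraries. Over all genes 2.83% and 2.7% were higher, and the median of the 13 was 0.94 and 1.10, beside 0.00 and 0.03. Oasl2, an interferon-induced gene, gave 1.38 (SE 0.20) and 0.98 (SE 0.20). The knockout call of Oasl2 was lost without any one of S20, S25, S27 or S36 (adjusted p 0.0602 to 0.134). The knockout count was 7 by edgeR and 10 by DESeq2, 0 without S25 and S27 and 12 higher and 1 lower without S26. Between Trem2 genotypes limma, edgeR and DESeq2 called 0 of 13 in microglia and in donor cells, with 0 higher and 1 lower in microglia and 0 in donor cells at an unadjusted p under 0.05. In microglia 0 higher and 4 lower were called without S26, and 4 higher and 0 lower without S25 and S27.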

How the data were processed

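Normalized signal per gene was deposited by the authors in 1 table of 17 libraries (SMART-Seq v4 kit, which does not mark strand, NovaSeq, per the labels' protocols). The submitters' processing notes name STAR 2.5.2b, bcl2fastq, RSEM, HTSeq, a DESeq2 numbered 3.17, and the builds GRCm38.p6 and mm10. Which program did the counting, with what annotation and filters, is not given in the sources used here. Deposited values can be turned back into reads with a single factor for each library: 100% of values under 2000 were whole reads within a tolerance of 0.02, although in S20 the factor is so near 1 that rounding alone could give this. Recovered totals were 16044078 to 30606394 reads. Their number limits precision only for the lowest genes, and p-values cover the spread between libraries.

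Columns were assigned to groups by name; outside the normal group they carry no replicate number. Libraries are named by the sample number in the column names. The closest pairs of libraries were S30 with S31, S22 with S23 and S25 with S27 (chi-square per degree of freedom 4.92, 6.11 and 9.61, against 13.1 to 129.8 for other pairs of 1 group), above sampling noise, and were kept as separate replicates.

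Values were analysed as log2(value + 1) for genes that reached 10 in 3 or more libraries (12074 kept, 1427 left out), with limma 3.58.1 (lmFit, eBayes with trend, R 4.3.3), 1 mean per group, two-sided, Benjamini-Hochberg over all tested genes. Folds are on that scale. Alternatives were pseudocounts of 0.5 and 5, no filter, upper-quartile scaling, edgeR 4.0.16 and DESeq2 1.42.0 on recovered reads, only the groups compared, array weights, closest pairs averaged and each library left out; leaving out S25 and S27, S30 and S31, or (for list counts) S26, S28 or S34 was chosen after seeing the data. The procedure was tested on simulated data. The members and lists were chosen with earlier results of these data known. Named genes are the members, Trem2, up to 4 called genes with the smallest p per list and comparison, and the 3 genes most correlated with each member over 17 libraries without predicted genes; Sall1, Tlr5, Tlr11, Irak3, Il1b and the library values of list genes were added after values were seen. Gene positions and exon lengths are from GENCODE vM21 (GRCm38), and promoters from RefSeq. Genes that would show the sex of the mice were not analysed here.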

Additional observations from a re-analysis of the deposited data

Results flagged for a closer look

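Tlr6 had 796.26 normalized reads in S28 of the wild-type donor group, far above the other 3 libraries, a gap of 0.925 of the group's range by Dixon's ratio. Irak3 had 785.08 in the same library (ratio 0.922). Chance marks about 1 in 20 groups in this way.

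The Trem2 effect (wild type minus knockout) differed between transplanted cells and microglia for Tlr2 by -0.69 on the log2 scale (adjusted p = 0.0283, limma). Among the named pathway genes it also differed for Lbp (3.87), Ly96 (1.66), Cd40 (1.42), Bcl3 (1.15), Tnfaip3 (-1.16) and Tmed7 (-0.72). These calls were lost without any one of 9 libraries for Ly96 and for Cd40, 8 for Bcl3, 7 for Tmed7 and 6 for Tnfaip3. Lbp had only 5 to 95 normalized reads per library. Most neutrophil and monocyte markers, as counted above for Tlr2, were also called in this contrast, and their part was not tested.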

How the results depend on the processing

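Pseudocounts, no filter, upper-quartile scaling and edgeR moved no count of called members by more than 1.5 times. In wild-type 5xFAD against normal microglia 1 member was called, and 2 by DESeq2, 2 with only the groups compared and 3 with array weights. In knockout 5xFAD against normal microglia 0 were called, 1 by DESeq2, 5 with array weights and 0 to 2 with each library left out. For Trem2 in microglia the count of 1 became 4 with array weights, 0 with closest pairs averaged and 1 to 2 with each library left out. For Trem2 in transplanted cells 5 became 2 with only the groups compared, 0 with closest pairs averaged, 0 without S30 and S31 and, with each library left out, 3 to 7. For the difference of the Trem2 effects 1 became 2 by DESeq2, 7 with array weights, 0 with closest pairs averaged, 0 without S30 and S31 and 0 to 3 with each library left out. The counts for transplanted cells against microglia stayed within 1.5 times. The cause was not tested, beside the fewer samples in some of these fits.

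Signs turned for 5 differences, of which 0 were called with all libraries by the limma model. Without S25 and S27, Tlr9 gave -0.32 between wild-type and knockout microglia (0.35 with all), -0.47 and -0.35 for knockout and wild-type donor cells against knockout microglia (0.20 and 0.32), and 0.44 for the difference of Trem2 effects (-0.23). Myd88 in knockout donor cells against knockout microglia (-0.05) gave 0.13 with array weights, and -0.23 to 0.14 with each library left out (0.14 without S26, 0.0085 without S34). Of these, Tlr9 was called with array weights between wild-type and knockout microglia (0.66, adjusted p = 0.0344) and for knockout donor cells against knockout microglia (0.79, 0.0153), and Myd88 without S25 and S27 for the latter (-0.44, 0.0374). Differences within 0.2 of 0 that were called under no setting (23) are given no direction.

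The counts over all genes moved more. They were 457, 472, 615, 814 and 341 for the comparisons in the order above, and 756, 1266, 997, 1695 and 875 by DESeq2, 2227, 6080, 5856, 3447 and 4538 with array weights, and 245, 22, 165, 30 and 72 with closest pairs averaged. With only the groups compared the first 4 were 1819, 10, 276 and 150. With each library left out they fell as low as 272, 47, 297, 113 and 185, and without S26 rose to 4600, 3666 and 1665 in the second, the third and the last, and without S28 to 1881 in the fourth. Without S25 and S27 the second, the third and the last were 2, 230 and 163, and without S30 and S31 the fourth and the last were 20 and 149. For transplanted cells against microglia the counts of 3399 (wild type), 3062 (knockout) and 4238 (wild type against knockout) became 6274, 6477 and 6996 with array weights. The first became 2013 and the last 2109 with closest pairs averaged. The last became 2644 with only the groups compared, 2743 without S25, 2188 without S25 and S27 and 2726 without S30 and S31. No paired analysis was possible because the columns outside the normal group carry no replicate number.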
